A study of Rattus norvegicus with 16 samples.

Results

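Pyruvate dehydrogenase kinases and phosphatases were followed in liver and epididymal fat of rats fed R-α-lipoic acid. The 7 members were chosen by gene symbol: the kinases Pdk1, Pdk2, Pdk3 and Pdk4, the phosphatases Pdp1 and Pdp2, and Bckdk, the kinase of the related branched-chain complex. All 7 were found among the 22517 gene symbols of the files, Pdp1 under its older symbol Ppm2c. The 8 animals were male and obese, of the Zucker diabetic fatty strain ZDF/GmiCrl-fa/fa, whose fa/fa genotype leaves them without a working leptin receptor. From 9 to 11 weeks of age, for 2 weeks, one set received Purina 5008 feed with lipoic acid (LA) and the other was pair-fed (PF) the same feed without it. All groups share the obese genotype, and the LA dose is not given in the sources used here. RNA sequencing gave 4 biological replicates for each of LA liver, PF liver, LA fat and PF fat, 16 libraries in all.

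The pyruvate dehydrogenase complex turns pyruvate into acetyl-CoA in mitochondria and so commits carbon from sugar to oxidation or to fat synthesis. A kinase bound to the lipoyl domains of the complex phosphorylates its E1 alpha subunit, Pdha1, and stops it, and a phosphatase removes the phosphate and restarts it. Lipoic acid, bound to the Dlat subunit, is the swinging arm of the same complex. Pdk2 is the widely expressed kinase, Pdk4 is the isoform known for its rise in fasting and diabetes through PPARα and FOXO1, Pdk1 is a classical target of the hypoxia factor HIF-1, and Pdk3 is abundant in testis. Pdp1 is the phosphatase stimulated by calcium, and Pdp2 is the isoform linked to insulin in liver and fat. Bckdk does for the branched-chain 2-oxoacid dehydrogenase what the other kinases do for pyruvate dehydrogenase, and Ppm1k is the phosphatase that opposes it.

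The upstream stretches of Pdk2, Pdk1 and Pdk4, the 3 pyruvate dehydrogenase kinases with the largest levels in liver, are shown because targets of HIF-1 and of FOXO1 were measured beside them. They are RefSeq sequences of the GRCr8 assembly, 5′ to 3′ on the gene's strand, ending where the annotated gene starts. Capitals mark GCGTG and ACGTG on either strand, the core letters of a hypoxia response element, and GTAAATA, a forkhead-type motif. The Pdk1 stretch lies on the plus strand at chr3:77113264-77113463, Pdk2 on the minus strand at chr10:80483989-80484162, and Pdk4 on the minus strand at chr4:34568330-34568579.
Pdk1: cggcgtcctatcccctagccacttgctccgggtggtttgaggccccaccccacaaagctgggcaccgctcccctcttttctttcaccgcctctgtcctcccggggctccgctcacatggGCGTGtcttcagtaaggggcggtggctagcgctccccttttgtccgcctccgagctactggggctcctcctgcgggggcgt
Pdk2: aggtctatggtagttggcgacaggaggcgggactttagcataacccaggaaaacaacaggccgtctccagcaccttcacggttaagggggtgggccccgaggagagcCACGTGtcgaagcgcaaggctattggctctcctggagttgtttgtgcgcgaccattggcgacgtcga
Pdk4: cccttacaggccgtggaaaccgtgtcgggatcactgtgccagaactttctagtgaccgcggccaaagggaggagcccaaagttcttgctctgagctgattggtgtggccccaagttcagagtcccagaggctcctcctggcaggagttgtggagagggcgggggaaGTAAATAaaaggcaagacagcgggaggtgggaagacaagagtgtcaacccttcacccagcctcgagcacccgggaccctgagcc

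In the full 300-base windows around the start, Pdk1 held 2 GCGTG, of which 1 is in the printed stretch, and 2 ACGTG, both outside it. Pdk2 held 2 overlapping ACGTG, 1 on each strand, which together spell the E-box CACGTG. Pdk4 held neither core and 1 GTAAATA, and no kinase window held AGGTCA or GTAAACA. Of 33465 RefSeq promoter windows of the same length, 29.7% held GCGTG, 19.3% ACGTG, 6.42% CACGTG and 3.51% GTAAATA, so GCGTG and ACGTG are common motifs. A match is a description of letters and not a binding site. Bckdk held none of these letters in its window, and Pdk3 held 4 GCGTG and 1 ACGTG.

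The make-up of the kinases differed between the tissues. In liver Pdk2 was the main isoform, with a share of 68.2 ± 2.54% of the summed Pdk1 to Pdk4 FPKM under LA and 59.6 ± 2.75% under PF (mean ± SD, n = 4 each). In fat the largest mean share belonged to Pdk1, at 41.7 ± 6.84% under LA and 53.0 ± 6.65% under PF. FPKM scales fragments to transcript length and library size, and on that basis these levels were set against each other between genes. Such shares and ratios also rest on the transcript annotation, which is not stated in the sources used here. Errors of estimation that differ between genes were not tested. Pdk4 made up 9.52 ± 2.59% of the kinases in LA liver and 11.8 ± 2.41% in PF liver, and 19.3 ± 6.56% in LA fat and 11.3 ± 4.28% in PF fat. Pdk3 was 0.249% of the kinases in LA liver and 0.234% in PF liver, against 6.15% in LA fat and 5.28% in PF fat. These shares are descriptions of the members and carry no test.

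**Figure D1:**
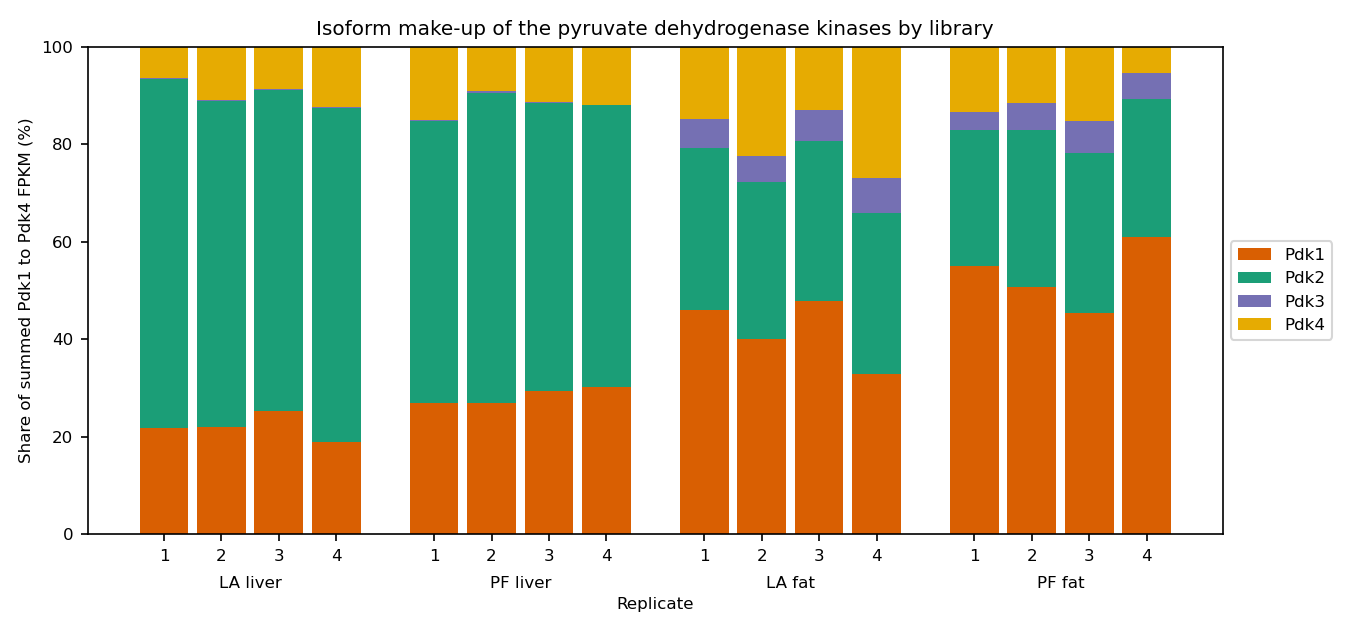
Share of each kinase in the summed FPKM of Pdk1 to Pdk4 (vertical axis, percent) in each of the 16 libraries, by group and replicate; bars add to 100. Pdk2 takes 57.8 to 71.7% in the liver libraries and 28.0 to 33.3% in the fat libraries.

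Pdk2 stood at 95.4, 80.8, 89.3 and 94.0 FPKM in LA liver replicates 1 to 4, and at 26.9, 27.7, 26.1 and 28.4 FPKM in LA fat. In PF liver it stood at 111, 100.2, 107 and 121 FPKM, and in PF fat at 29.9, 28.3, 24.5 and 28.7 FPKM. All liver libraries were above all fat libraries under both feeds. The log2 fold change of liver over fat was 1.68 under LA (SE 0.080, limma adjusted p = 1.1e-08) and 1.94 under PF (SE 0.094, limma adjusted p = 4.9e-09).

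The phosphatases differed in direction between the tissues, with Pdp1 higher in fat and Pdp2 higher in liver. Pdp1 was at 0.943, 0.784, 0.762 and 0.994 FPKM in LA liver and at 12.8, 10.9, 14.1 and 13.6 FPKM in LA fat. Under PF it was at 0.860, 1.25, 0.916 and 0.834 FPKM in liver and at 11.7, 11.1, 11.8 and 13.6 FPKM in fat. Its mean in fat was 14.7 times that in liver under LA and 12.5 times under PF, and no liver library reached a fat library. Lower values in liver without overlap were seen for 63.3% of all genes tested under LA and 62.9% under PF. Pdp1 met the test filter of 1 FPKM in 4 libraries through fat, so its call is not counted below. Pdp2 was at 4.90, 4.40, 7.98 and 5.02 FPKM in LA liver and at 3.35, 3.42, 3.59 and 4.04 FPKM in LA fat, and at 5.46 to 7.13 FPKM in PF liver and 2.82 to 3.68 FPKM in PF fat. Pdp2 was therefore the main phosphatase of liver and Pdp1 of fat: Pdp1 supplied 14.1 ± 3.66% of the summed phosphatase FPKM in LA liver, 13.7 ± 2.85% in PF liver, 78.0 ± 1.74% in LA fat and 77.8 ± 1.70% in PF fat.

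Kinase and phosphatase levels were further apart in liver than in fat. The ratio of summed Pdk1 to Pdk4 over summed Pdp1 and Pdp2 was 21.1 ± 3.73 in LA liver and 26.1 ± 3.11 in PF liver, against 5.09 ± 0.636 in LA fat and 5.99 ± 0.885 in PF fat. LA liver replicate 3, with the highest Pdp2, had the lowest liver ratio, 15.5. Ratios of LA and PF libraries overlapped in both tissues. Pdpr, the regulatory subunit of the phosphatase, was at 4.87 ± 1.16 FPKM in LA liver, 4.44 ± 0.536 in PF liver, 4.77 ± 1.30 in LA fat and 5.09 ± 1.45 in PF fat.

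Bckdk was lower in liver than in fat, at 11.5, 16.3, 11.5 and 13.1 FPKM in LA liver and 40.4, 34.8, 36.7 and 33.8 FPKM in LA fat. Under PF it was at 14.6 to 16.6 FPKM in liver and 32.4 to 40.0 FPKM in fat. Its phosphatase Ppm1k was higher in the mean in liver, at 14.8 ± 3.56 FPKM in LA liver and 3.30 ± 0.605 FPKM in LA fat. The ratio of Bckdk to Ppm1k was 0.962 ± 0.449 in LA liver and 0.958 ± 0.163 in PF liver, against 11.5 ± 3.09 in LA fat and 11.8 ± 3.05 in PF fat. Pdk3 was at 0.230 to 0.481 FPKM in LA liver and 0.297 to 0.557 FPKM in PF liver, and at 4.53 to 6.11 FPKM in LA fat and 3.83 to 5.51 FPKM in PF fat. Between the feeds in liver, a fit without the filter gave Pdk3 a log2 fold change of -0.11 (SE 0.081, limma adjusted p = 0.61) and Pdp1 -0.07 (SE 0.085, limma adjusted p = 0.76).

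Between tissues a gene passed at a limma adjusted p under 0.05 with a log2 fold change over 1 in size. Under LA, Pdk2 passed as higher in liver, where 10.5% of 11568 genes did, and Bckdk as lower, where 36.0% did. Under PF, Pdk2 and Pdk4 passed as higher, where 11.1% of 11492 genes did, and Bckdk as lower, where 36.3% did. Bckdk had log2 fold changes of -1.42 under LA and -1.14 under PF. Pdk3 and Pdp1 met the filter of 1 FPKM in 4 libraries through the fat libraries, where they are high, so they had to differ between the tissues and their calls are not counted here. The shares of all genes called lower, and those without overlap, include genes of the same kind. Pdk3 had -2.20 under LA and -2.01 under PF, and Pdp1 -2.88 and -2.73. For such low levels the offset of 1 FPKM sets the size: with an offset of 0.1 Pdk3 had -3.65 and -3.24, and Pdp1 -3.74 and -3.52. Without regard to size, LA liver and LA fat did not overlap for Pdk2 and Pdp2, higher in liver (16.6% of all genes), nor for Bckdk, lower (63.3%). In PF liver and PF fat Pdk4 joined those higher (17.3%), and Bckdk was again lower (62.9%). Pdk3 and Pdp1 are left out here for the same reason as above. Pdp2 had 0.49 and 0.69 and stayed under the size required. Pdk4 under PF had 1.06 (SE 0.26, limma adjusted p = 0.0029), and was under the size required without PF liver replicate 1 (0.93), PF liver replicate 4 (0.99) or PF fat replicate 4 (0.81). Under LA it had -0.31 with overlapping groups, and -0.48 to -0.12 with a library left out. Pdk1 did not pass under either feed, with -0.24 under LA and 0.10 under PF. The median over all genes tested was -0.65 under LA and -0.66 under PF, so the higher and lower counts rest on the scaling: 1211 genes were higher and 4161 lower under LA, and 1985 and 2292 after each library was centred on its median. Under PF the counts were 1273 higher and 4174 lower, and 2064 and 2253 after centring. With centring Bckdk had -0.75 and -0.47 and no longer passed, Pdp2 had 1.16 and 1.36 and passed, while Pdk1 turned to 0.43 and Pdk4 to 0.36 under LA. Pdk2 passed as higher with and without centring.

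**Figure D2:**
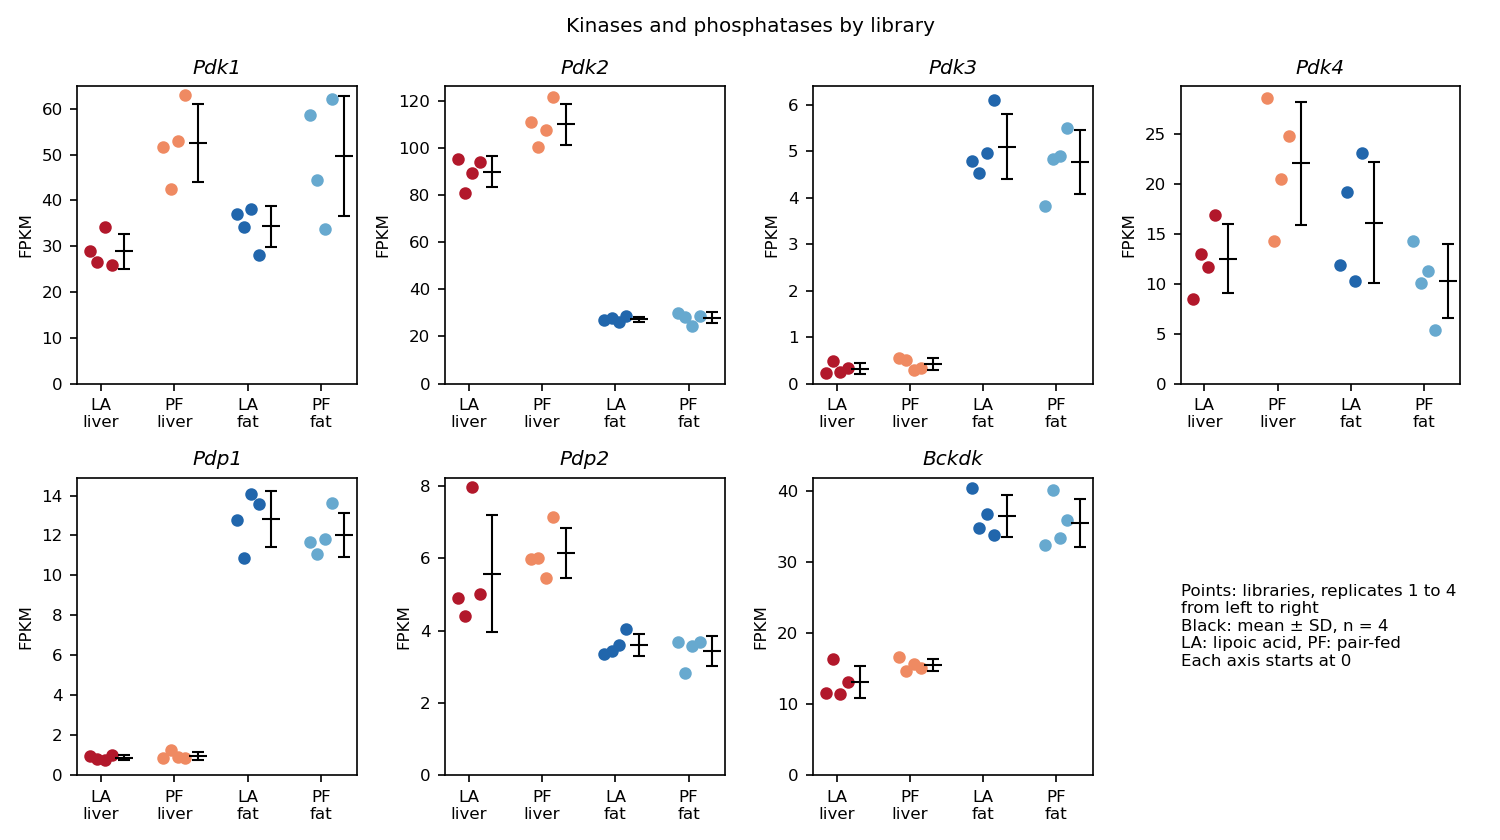
FPKM (linear axis from 0) of each of the 7 members in the libraries of LA liver, PF liver, LA fat and PF fat; points are libraries and black bars the mean ± SD of 4. Pdk1 in LA liver lies at 25.9 to 34.3 FPKM, below every PF liver library at 42.4 to 63.1, while the fat groups overlap.

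In liver the feed comparison asked which members differ between LA and PF rats. Pdk1 fell under LA and was the 1 of 5 tested members that passed (limma, adjusted p under 0.05 over 9710 genes, where 2.21% passed as lower and 4.48% in either direction). Pdk2 and Pdk4 were lower in the mean but did not pass, and neither did Pdp2 or Bckdk. Pdk1, Pdk2 and Pdk4 were the 3 of 5 members at an unadjusted limma p under 0.05, where 20.1% of all genes were. Pdk3 and Pdp1 were below the filter of 1 FPKM in at least 4 liver libraries. The liver is a mixture of cells, and fewer cells of a type cannot be told apart here from less RNA per cell.

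Pdk1 was at 29.0, 26.5, 34.3 and 25.9 FPKM in LA liver, against 51.8, 42.4, 53.1 and 63.1 FPKM in PF liver. Every LA library was below every PF library. The means were 28.9 ± 3.82 FPKM under LA and 52.6 ± 8.46 FPKM under PF, and the log2 fold change was -0.84 (SE 0.12, 95% confidence interval -1.11 to -0.56, limma adjusted p = 0.0050). Pdk1 also took a smaller share of the kinases, 18.9 to 25.3% in LA liver against 26.9 to 30.1% in PF liver. Pdk1 passed in each of the 15 alternative fits of this comparison, with adjusted p of 0.0043 to 0.021.

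Pdk2 in the same libraries was lower under LA without overlap, at 80.8 to 95.4 FPKM against 100.2 to 121 FPKM under PF. Its log2 fold change was -0.29 (SE 0.083, limma adjusted p = 0.079), which did not pass. No overlap with LA lower was seen for 2 of the 7 members, Pdk1 and Pdk2, and for 6.39% of all genes tested. Mean Pdk2 under LA was 0.818 of that under PF, where the ratio was 0.550 for Pdk1 and 0.567 for Pdk4. The Pdk2 share of the kinases was 65.9 to 71.7% under LA and 57.8 to 63.6% under PF.

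Pdk4 was at 8.46, 13.0, 11.7 and 16.9 FPKM in LA liver, against 28.7, 14.3, 20.5 and 24.8 FPKM in PF liver. The ranges met: LA replicate 4 was above PF replicate 2. The log2 fold change was -0.77 (SE 0.22, 95% confidence interval -1.25 to -0.28, limma adjusted p = 0.078). Of the 15 alternative fits it passed only in the one without PF replicate 2, with a log2 fold change of -0.95 and an adjusted p of 0.036 in limma.

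Summed over the isoforms, the kinases stood at 121 to 137 FPKM in LA liver and 157 to 210 FPKM in PF liver, with no overlap. The sum of the phosphatases overlapped between feeds, at 5.18 to 8.74 FPKM under LA and 6.37 to 7.96 FPKM under PF. Pdp2 had a log2 fold change of -0.14 (SE 0.15, limma adjusted p = 0.65), which was -0.30 without LA replicate 3, -0.059 without LA replicate 2 and -0.081 without PF replicate 4. Bckdk had -0.24 (SE 0.11, limma adjusted p = 0.25), with 11.5 to 16.3 FPKM under LA and 14.6 to 16.6 FPKM under PF.

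Marker levels of the liver's cell types moved with the feed. The 12 measured hepatocyte markers summed to 33070 to 40290 FPKM in LA liver and 43050 to 53260 FPKM in PF liver, with Alb and Tf listed at 0 in all of them and 1 of the 12 higher in the mean under LA. The 15 measured Kupffer cell and macrophage markers summed to 282 to 401 FPKM in LA liver and 213 to 246 FPKM in PF liver, with Emr1 and Marco at 0, and 13 of the 15 were higher in the mean under LA. The 9 adipocyte markers summed to 80.1 to 92.7 FPKM in LA liver and 70.4 to 85.3 FPKM in PF liver, with Adipoq, Lep, Plin and Retn at 0. In fat the adipocyte sums were 37320 to 43570 FPKM under LA and 35160 to 40460 FPKM under PF, and the hepatocyte sums 323 to 1197 FPKM under LA and 753 to 1369 FPKM under PF, so each tissue was highest in its own marker list. In liver the sums of all other marker lists overlapped between the feeds, among them T cells, B cells, neutrophils, endothelium, fibroblasts, cholangiocytes, muscle and erythroid cells, and in fat the sums of all lists did. The part of these shifts in the Pdk1 result was not tested.

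**Figure D3:**
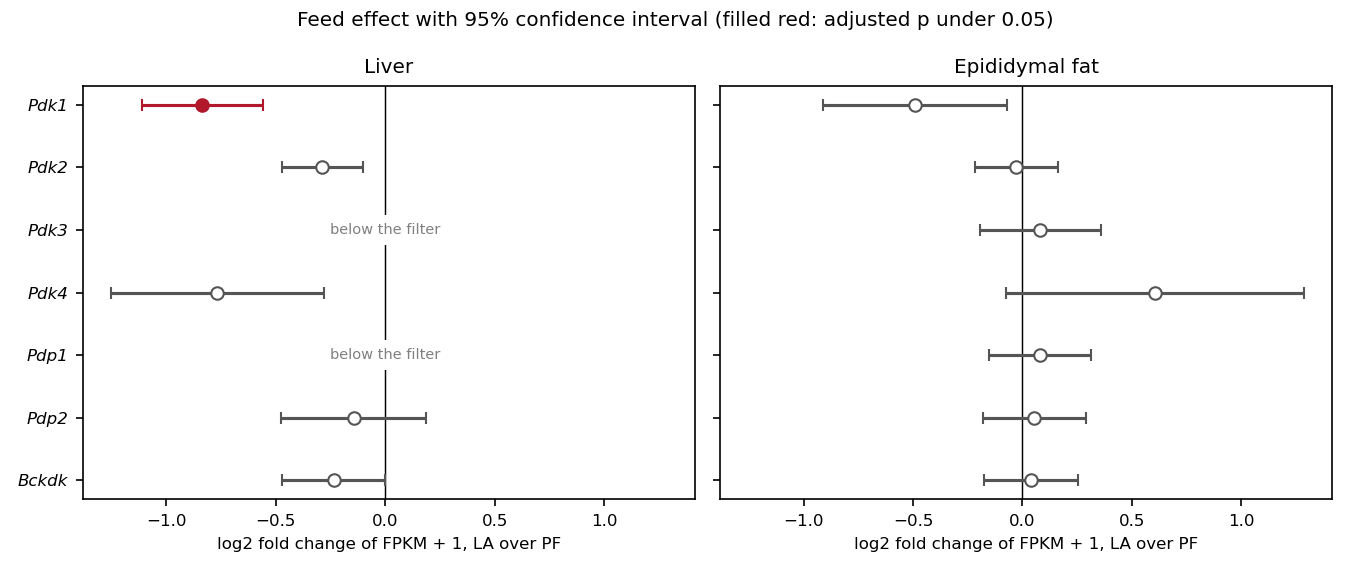
Log2 fold change of FPKM + 1, LA over PF (horizontal axis), with its 95% confidence interval from limma for each member in liver and in fat; the filled red point passed. In liver Pdk1 at -0.84 is the member that passed, Pdk2 and Pdk4 lie below 0 and Pdk3 and Pdp1 were below the filter; in fat no member passed.

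In fat no member passed (limma, 2 of 11501 genes passed, 0.0174%), and all 7 overlapped between the feeds, where 2.08% of all genes did not. Of the 7 members, 1 had an unadjusted p under 0.05, Pdk1, where 3.92% of all genes did. It was at 37.1, 34.2, 38.1 and 28.1 FPKM in LA fat, against 58.6, 44.5, 33.8 and 62.1 FPKM in PF fat. PF replicate 3 lay among the LA libraries and the other PF libraries above them. The log2 fold change was -0.49 (SE 0.19, 95% confidence interval -0.91 to -0.07, limma adjusted p = 1.00), and -0.66 without PF replicate 3, where it still did not pass. Macrophage markers in these libraries summed to 1831 to 3454 FPKM under LA and 1440 to 2188 FPKM under PF. Epididymis markers were at 0 under LA and at 0 to 9.63 FPKM under PF. Their part in the fat values was not tested.

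Pdk4 in fat was at 11.9, 19.2, 10.3 and 23.1 FPKM under LA, against 14.3, 10.1, 11.2 and 5.39 FPKM under PF. LA replicates 2 and 4 were the high libraries and PF replicate 4 the low one, and the groups overlapped. The log2 fold change was 0.61 (SE 0.30, 95% confidence interval -0.08 to 1.29, limma adjusted p = 1.00). The other 5 members had log2 fold changes between -0.03 for Pdk2 and 0.08 for Pdk3 and Pdp1.

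The feed effects on Pdk4 in liver and fat had opposite signs, -0.77 and 0.61. The fat value was 0.36 without PF fat replicate 4, and 0.42 to 0.78 without any other single fat library. The difference, liver minus fat, was -1.37 (SE 0.41, 95% confidence interval -2.24 to -0.50, limma unadjusted p = 0.0041 and adjusted p = 0.23 over 12079 genes), and so did not pass. Pdk2 had a difference of -0.26 with an unadjusted p of 0.039 in limma and an adjusted p of 0.56. These were the 2 of 7 members under an unadjusted p of 0.05, where 8.20% of all genes were, and no member passed where 0.381% of all genes did. Pdk1 had -0.35 (SE 0.24, limma adjusted p = 0.82), so its fall in liver was not shown to differ from the change in fat. Without PF fat replicate 3 the difference was -0.18.

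The subunits of the complex itself were measured beside the kinases. Of 6 tested genes (Pdha1, Pdhb, Dlat, Dld, Pdhx and Pdpr) none passed in liver or in fat, with medians of -0.14 in liver and -0.36 in fat, beside 0.00 and 0.01 over all genes tested. In liver Pdha1, the target of the kinases, was at 25.5 ± 1.45 FPKM under LA and 32.9 ± 4.47 FPKM under PF (log2 fold change -0.35, limma adjusted p = 0.070). Its LA libraries, at 23.3 to 26.4 FPKM, lay below all PF libraries, at 28.0 to 38.0 FPKM, as for 6.39% of all genes tested. The other tested genes of this list overlapped between the feeds in liver. Dlat, the lipoyl-bearing E2 subunit to which the kinases bind, had a log2 fold change of -0.51 in liver (limma adjusted p = 0.076). Dld, the E3 subunit, had -0.03 and Pdhx, the E3-binding protein, -0.08.

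In PF fat the subunits varied from library to library broadly along with Pdk1, and less so in LA fat. LA fat replicate 4 was the lowest LA fat library for Pdk1, Pdhb, Dlat and Pdhx, but not for Pdha1 and Dld. PF fat replicate 3 held 36.8 FPKM of Dlat, 62.2 of Pdhb and 11.6 of Pdhx, against 50.6 to 68.3, 106 to 162 and 19.2 to 21.2 FPKM in the other PF fat libraries. In LA fat these genes were at 35.0 to 44.6 FPKM for Dlat, 56.5 to 99.1 for Pdhb and 10.8 to 15.6 for Pdhx. The low PF library for Pdk1 was thus also the lowest PF library for each of these 3 subunits, as it was for Pdha1 at 79.3 FPKM and Dld at 159.8 FPKM. Its low values were not particular to this complex. PF fat replicate 3 was also the lowest PF fat library for Pdk2, at 24.5 FPKM. The same held for the 21 genes listed for branched-chain breakdown, apart from Bcat1, Ppm1k, Acadsb and Slc25a44. Ivd of that list was at 60.2 FPKM there, against 76.9 to 83.8 FPKM in the other PF fat libraries.

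**Figure D4:**
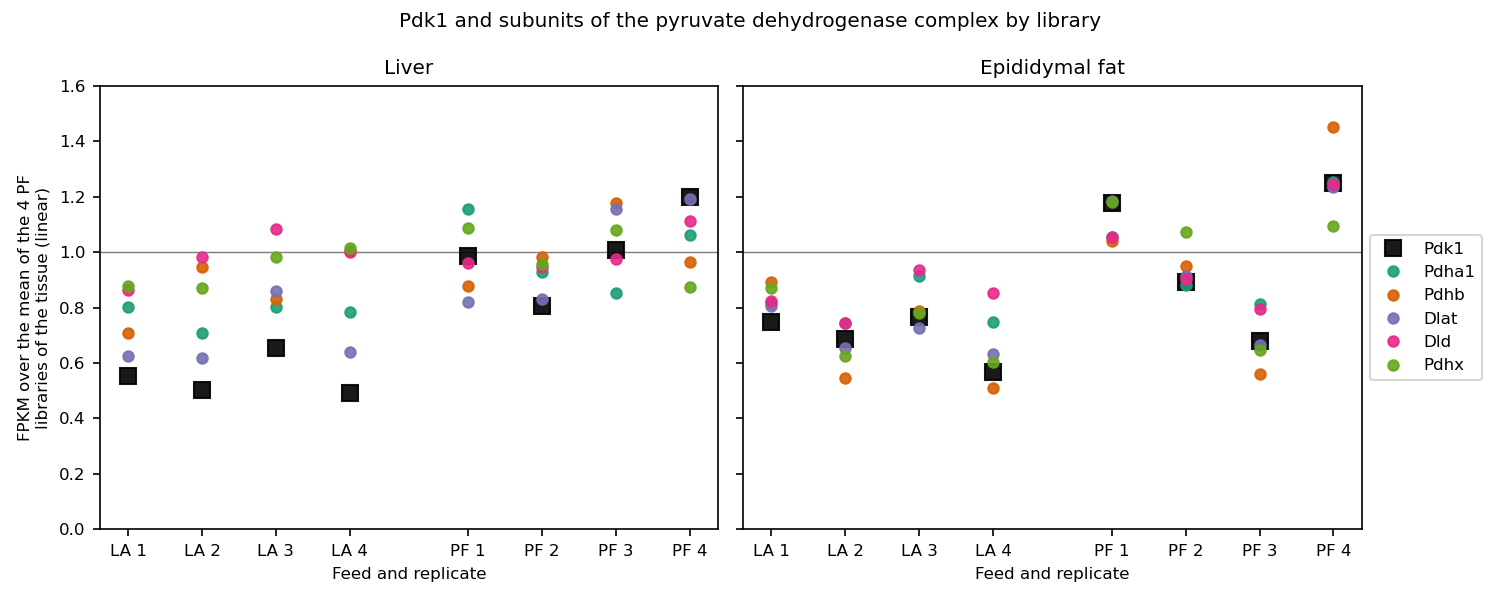
FPKM of Pdk1 (black squares) and of 5 subunits of the complex (coloured points) in each library, divided by the mean of the 4 PF libraries of the same tissue (linear axis; grey line at 1). In fat, PF replicate 3 holds 0.56 to 0.81 of the PF mean for all 6 genes, among the LA libraries; in liver Pdk1 in LA libraries, at 0.49 to 0.65, lies below all 5 subunits of the same library.

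No subunit of the branched-chain complex passed in the feed comparisons. Bckdha, Bckdhb and Dbt had log2 fold changes of -0.13, 0.05 and 0.00 in liver and -0.02, -0.15 and -0.18 in fat, and Ppm1k had -0.16 and 0.06. Of the branched-chain breakdown genes, none of 20 passed in liver, with a median of -0.05, and none of 21 in fat, with a median of -0.13. The smallest p in liver belonged to Hibch and Acaa2, with log2 fold changes of 0.31 and 0.44. Bcat2, the mitochondrial transaminase that starts this pathway, was at 1.24 ± 0.425 FPKM in LA liver and 45.6 ± 1.12 FPKM in LA fat.

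Lists of genes known to share regulators with the kinases, of the regulators themselves, and of pyruvate transport and use were set beside them. Of 20 tested carbohydrate-response genes, targets of ChREBP, 9 fell in liver, where 2.21% of all genes did, and 0 rose, with a median of -0.79. They include Rgs16, a regulator of G protein signalling, at 71.3 ± 26.2 FPKM in LA liver and 319.6 ± 65.7 in PF liver, the lipid droplet protein Pnpla3, with a log2 fold change of -3.76, Tkt of the pentose phosphate pathway, with -0.78, and Pklr, the liver pyruvate kinase that supplies the complex with pyruvate, with -0.91. Of 19 tested genes that PPARα, FOXO1 and fasting induce together with Pdk4, 4 rose in liver, where 2.27% of all genes did, and 0 fell, with a median of 0.15. These were Acot2 and Vnn1, with 1.81 and 1.00, the fatty acid hydroxylase Cyp4a10, with 0.49, and the carnitine carrier Slc25a20, with 0.31, while Pdk4 itself had -0.77 in these livers. The lists were chosen with earlier results of these data known, so their counts are not separate evidence.

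Among 16 tested HIF-1 targets in liver 1 rose and 0 fell, with a median of -0.02, beside 2.27% of all genes that rose and 2.21% that fell. The one that rose was Aldoa, a glycolytic aldolase, with 0.51, whereas Pdk1 of the same class fell. Of 27 regulators of the kinases none passed in liver, with a median of 0.01. The smallest p belonged to the nuclear receptors Esrra and Pparg, with 0.24 and 0.29. Among the others Hif1a had -0.10, Ppara -0.02, Foxo1 0.04 and the glucocorticoid receptor Nr3c1 -0.16. Of the genes for pyruvate transport and use, 0 of 15 rose and 2 fell in liver, with a median of 0.03, beside the same shares of all genes. These were Pklr and Acly, and Acly is the enzyme that makes cytosolic acetyl-CoA. Both are also among the carbohydrate-response genes counted above as lower, so the counts of these lists share them. The mitochondrial pyruvate carrier Mpc1, listed under its older symbol Brp44l, had a log2 fold change of -0.38 (limma adjusted p = 0.064). In fat, Scd1, which is listed at 0 in all 4 PF fat libraries, was the one gene of these lists that passed. Exact 0 values can be failed estimates, and whether those of Scd1 are was not tested. The list medians in fat were -0.48 for carbohydrate response, 0.07 for the fasting genes, -0.05 for HIF-1 targets, 0.08 for regulators and -0.11 for pyruvate use.

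**Figure D5:**
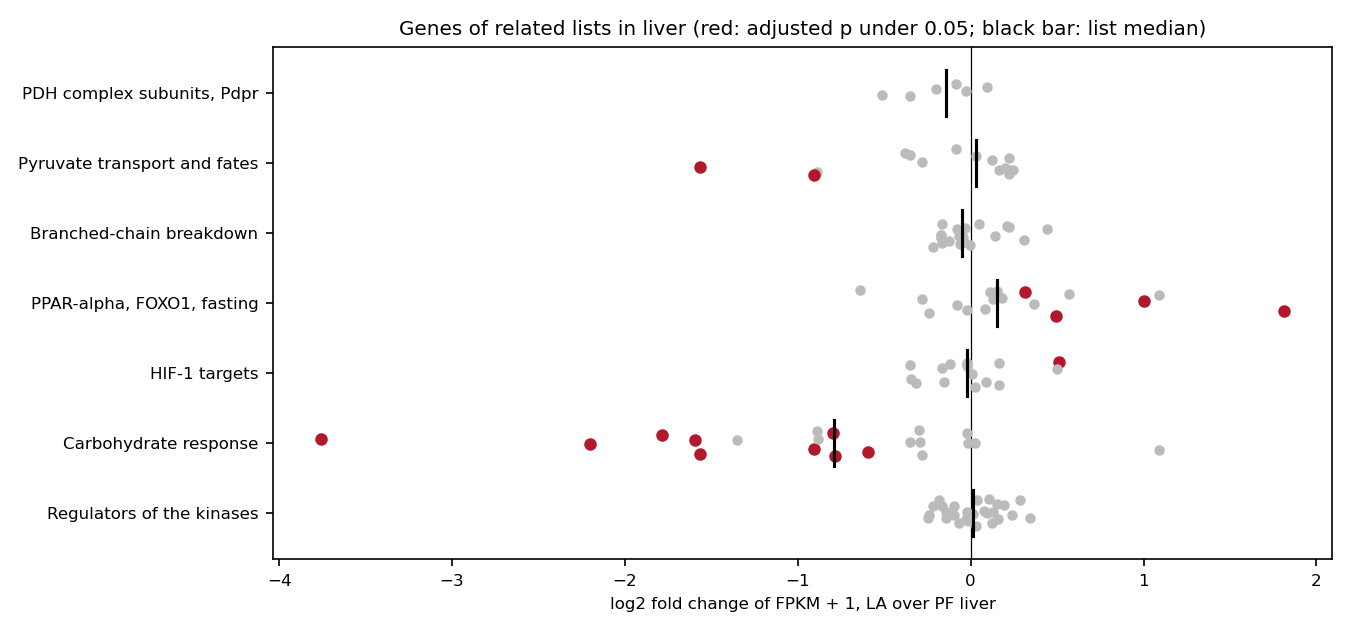
Log2 fold change of FPKM + 1, LA over PF liver (horizontal axis), of the tested genes of 7 related lists; red points passed and black bars are list medians. The carbohydrate-response genes have a median of -0.79 with 9 that fell, while the 27 regulators of the kinases have a median of 0.01 and none passed.

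The genes most like each main kinase over all 16 libraries were found as those with the smallest root mean square difference of centred log2(FPKM + 1). For Pdk2 these were Echdc2, Gstt2 and Erlin1, at 0.0916, 0.0967 and 0.121, where the median gene of 10250 was at 1.30. Echdc2 was at 54.5 FPKM in LA liver, 64.5 in PF liver, 17.1 in LA fat and 17.5 in PF fat, in the same order of groups as Pdk2 in liver and fat. For Pdk1 the nearest were Pmvk, Mtch2 and Carhsp1, at 0.262 to 0.275 with a median of 0.646, and for Pdk4 they were Sox6, Trib1 and Mcc, at 0.382 to 0.409 with a median of 0.832. A gene flat over all libraries would be at 0.413 from Pdk1 and 0.564 from Pdk4, so these are only partial matches. Sox6 had group means of 1.20 to 1.79 FPKM, near the offset of 1 FPKM. Trib1 was at 5.10 to 6.82 FPKM in LA liver and 8.56 to 14.3 FPKM in PF liver, and at 4.42 to 7.15 FPKM in LA fat and 3.94 to 5.42 FPKM in PF fat.

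The order of the 7 members by mean FPKM in LA liver was Pdk2, Pdk1, Bckdk, Pdk4, Pdp2, Pdp1, Pdk3, and in PF liver it was Pdk2, Pdk1, Pdk4, Bckdk, Pdp2, Pdp1, Pdk3. In both, the library ranges of Pdk4 and Bckdk overlapped and those of all other neighbours were apart. In LA fat it was Bckdk, Pdk1, Pdk2, Pdk4, Pdp1, Pdk3, Pdp2, and in PF fat Pdk1, Bckdk, Pdk2, Pdp1, Pdk4, Pdk3, Pdp2. Ranges in LA fat overlapped between Bckdk and Pdk1, Pdk1 and Pdk2, and Pdk4 and Pdp1. In PF fat they overlapped between Pdk1 and Bckdk, Pdp1 and Pdk4, and Pdk4 and Pdk3.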

How the data were processed

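Per the labels' protocols, TRIzol and RNeasy gave total RNA for TruSeq V2 libraries, a kit without strand information. Per the file headers, the authors deposited an FPKM value for each symbol in each library. CASAVA 1.8.2, TopHat and Cuffdiff are named in the submitters' processing notes; for genome build, annotation and settings, nothing is stated in the sources used here. FPKM values are shares of a library, so abundant genes move the rest. Read numbers are not in the files; steps between low values gave the relative value of a single fragment, 0.722 to 0.894 in LA liver, 0.853 to 1 in PF liver, 0.739 to 0.866 in LA fat and 0.774 to 0.961 in PF fat (PF liver replicate 1 set to 1). Genes at 1 FPKM or more numbered 9522 to 9738 in liver and 11276 to 11480 in fat. No 2 replicates held identical values.

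Values were tested as log2(FPKM + 1), which understates changes of low genes, with limma 3.58.1 in R 4.3.3 (mean-variance trend, Benjamini-Hochberg adjustment over all genes tested) on genes that reached 1 FPKM in 4 or more of its libraries. Fits used the 8 libraries of a comparison, or all 16 for the difference of feed effects. Liver and fat libraries were treated as independent, because the labels do not say which share a rat. The threshold was an adjusted p of 0.05, joined in tissue comparisons by a log2 fold change of more than 1 in size. Simulated data with 200 altered genes served only to check the code of the fit. They had independent noise around a mean common to all groups, so they do not cover tissue differences or shared rats. Alternatives were a pseudocount of 0.1, no filter, a filter of 5 FPKM, median centring, no trend, all 16 libraries in one model, a replicate block and each library left out. Exact 0 values can be failed estimates. Of list genes, 139 pathway and 97 marker entries matched by symbol, 4 and 3 by an older symbol in a RefSeq table of GRCr8, and 5 and 8 were not matched. Promoter windows were in the RefSeq table for 5 of the 7 members; Pdp1 and Pdp2 are named only. Genes named were the 7 members, subunits of both complexes, Pdpr and Ppm1k, list genes that passed (up to 4 per list and comparison) and the 3 most similar genes of Pdk1, Pdk2 and Pdk4; other list genes were named after their values were seen. The members and lists were chosen with earlier results of these data known. Figures were drawn with matplotlib 3.10.9.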

Additional observations from a re-analysis of the deposited data

Results flagged for a closer look

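Within a group of 4, a library was taken as standing apart where its gap to the nearest other exceeded Dixon's 95% critical value, as a share of the group's range, which chance gives in about 1 of 20 groups; 72 groups were looked at. Pdp2 in PF fat replicate 2 was low, at 2.82 FPKM, against 3.58 to 3.68 FPKM in the other PF fat libraries. The log2 ratio of kinases to phosphatases in LA liver replicate 3 was low, at 3.95 against 4.51 to 4.54 in the others, and the Pdp2 level of that library, 7.98 FPKM, was the highest of the 8 liver libraries. The ratio of Bckdk to Ppm1k in LA liver replicate 2 was high, at 1.63 against 0.69 to 0.80; this library had the highest Bckdk, 16.3 FPKM, and the lowest Ppm1k, 10.0 FPKM, of the LA livers.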

How the results depend on the processing

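Pdk1 in LA against PF liver passed under all 15 alternatives tried for that comparison, with log2 fold changes of -0.93 to -0.74 and limma adjusted p of 0.0043 to 0.021. The count of genes that passed in liver was 435, and 208 to 404 with a library left out (208 without LA liver replicate 2, 267 without PF liver replicate 1). In fat it was 2, and 1 with a pseudocount of 0.1, 7 with all 16 libraries in one model and 0 to 2 with a library left out. For the difference of feed effects it was 46, and 22 without a filter and 19 to 60 with a library left out (19 without PF fat replicate 1, 22 without PF liver replicate 1, 24 without LA liver replicate 2 or PF fat replicate 2, 28 without LA fat replicate 4 or PF fat replicate 4, and 30 without LA fat replicate 2). Between liver and fat the counts were 5372 under LA and 5447 under PF, and 3907 to 5055 and 3932 to 5136 with a library left out. The lower calls among them, 4161 under LA and 4174 under PF, were 2691 to 2723 without an LA fat library and 2659 to 2693 without a PF fat library. Pdk3, and Pdp1 under LA, then missed the filter and gave no value. Fewer genes reached the filter of 4 libraries when a library was left out. Without a fat library, genes that reached 1 FPKM only in fat could not meet this filter and left the fit. The higher calls were then 1214 to 1222 under LA and 1272 to 1277 under PF. The cause of the other shifts was not tested.

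In LA against PF fat, log2 fold changes near 0 changed sign when a library was left out. Pdk2 ranged from -0.086 to 0.0062 and Pdk3 from -0.0012 to 0.14, both changing sign without PF fat replicate 1. Pdp2 ranged from -0.016 to 0.082, changing sign without PF fat replicate 2. Pdp1 ranged from 0.038 to 0.15. Bckdk ranged from -0.0095 without LA fat replicate 1 to 0.099, and had -0.00013 without PF fat replicate 1. Between liver and fat, median centring turned Pdk1 to 0.43 and Pdk4 to 0.36 under LA, and leaving out a library gave Pdk1 -0.064 (without PF fat replicate 3) to 0.22 under PF. The log2 ratio of kinases to phosphatases, 4.38 in LA liver, 4.70 in PF liver, 2.34 in LA fat and 2.57 in PF fat, was 4.02 in LA liver and 4.37 in PF liver with FPKM + 1. Without the most abundant kinase it was 2.72 in LA liver, 3.39 in PF liver, 1.55 in LA fat and 1.47 in PF fat.

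With the replicate number as a block, 476 genes passed in liver, 1 in fat and 37 for the difference of feed effects, and no member's call changed; Pdk1 in liver had a limma adjusted p of 0.0073. Same-numbered samples correlated at 0.00 to 0.15 between LA and PF liver and at -0.43 to -0.06 between LA and PF fat, so the numbers were not taken as pairs, and 2 and 0 of the 4 pairs correlated best with their own number. Between liver and fat, which come from the same rats in an order the labels do not give, same-numbered samples correlated at -0.22 to 0.11 under LA (2 of 4 best with their own number) and at -0.03 to 0.29 under PF (3 of 4). FPKM carry no read counts, so counting error is unknown, and it weighs most on Pdk3 and Pdp1 in liver.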
